A study of Homo sapiens with 6 samples.

Results

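The genes described here are the Rab GTPases and the small group of proteins that switch on Rab5. They were taken by symbol: every gene named RAB with a number, plus the exchange factors RIN1, RIN2, RIN3 and RABGEF1 and the adaptor RABEP1. This choice also took in pseudogenes with Rab names, among them the processed pseudogenes RAB28P5 and RAB43P1. Of 60605 genes in the table, 76 matched and 68 had a count in at least 1 library. The other 8, RAB27B, RAB44, RAB1C, RAB28P1, RAB28P2, RAB28P3, RAB28P4 and RAB42P1, had 0 counts in all 6 libraries, and a count of 0 over 110094297 counts allows up to 0.0273 CPM, a gene's counts scaled to a common library total. That limit, set at 3 counts, covers counting error only.

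The cells were SW620, an established human colorectal cancer line. One group carried a lentiviral vector, pLVX-IRES-Puro, with the ELAPOR1 coding sequence, and the control group carried the same vector without an insert, with 3 libraries each. Virus for both groups was packaged in HEK293T cells, infection was at a multiplicity of 20, and cells were selected with 2 ug/ml puromycin and kept in DMEM with 10% serum. ELAPOR1 is a transmembrane protein of the endosomal and lysosomal system, and counts of ELAPOR1 do not separate the construct from the cells' own gene. The comparison asks how the messenger RNA levels of these genes differ between cells with the ELAPOR1 construct and cells with the empty vector. The labels do not say whether the libraries came from separate cultures or transductions, and the p-values then describe no more than library-to-library spread, possibly technical.

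Rab proteins are small GTPases that mark the membranes of the secretory and endocytic pathways. An exchange factor loads a Rab with GTP, the active Rab recruits effectors such as tethers, motors and sorting adaptors, a GTPase-activating protein ends the signal, and a dissociation inhibitor (GDI) extracts the inactive Rab from the membrane. Rab5 controls entry into early endosomes, Rab4 and Rab11 recycling, Rab7 transport to lysosomes, Rab1 and Rab2 traffic between the endoplasmic reticulum (ER) and the Golgi, Rab6 traffic at the Golgi, and Rab27 and Rab37 secretion. RIN proteins connect activated Ras to Rab5, and RABGEF1 with RABEP1 forms a complex that activates Rab5 and keeps it active.

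Libraries summed to between 16401813 and 20571924 counts. The ELAPOR1 gene itself stood at 11.49, 10.99 and 8.73 CPM in the vector libraries and at 21490, 21110 and 20770 CPM in the ELAPOR1 libraries, as the labels say, and it took 2.06 to 2.12% of all counts in the latter. Summed markers of colorectal epithelium ranged from 7681 to 8027 CPM with vector and from 7273 to 7287 CPM with ELAPOR1. Of 9 tested markers, 4 were lower and 1 higher, where 11.4% of all tested genes were lower and 10.0% higher. Their part in the results below was not tested. Summed fibroblast markers lay between 3.00 and 3.40 CPM with vector and between 3.20 and 3.66 CPM with ELAPOR1. Endothelial markers lay between 2.42 and 2.73 CPM and between 1.97 and 2.81 CPM, with CDH5 and KDR at 0. Immune markers lay between 5.71 and 7.87 CPM with vector and between 7.91 and 8.30 CPM with ELAPOR1. Markers of the packaging cells lay between 1.99 and 2.08 CPM and between 2.09 and 2.46 CPM, with NEFM and CDH6 at 0. The groups of these last 2 lists did not overlap, at low levels, and the reason was not tested. Few genes of these other lists had enough counts to test: 2 of 7 fibroblast, 2 of 4 endothelial, 3 of 7 immune and 1 of 6 packaging cell markers. None of the tested genes passed. In bulk RNA, fewer cells of a type and less RNA per cell cannot be told apart.

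RIN2 fell 4.32-fold with ELAPOR1, and the log2 fold change of every other Rab or RIN gene that passed the test lay between -1 and 1. Of the 68 genes, 57 had enough counts to be tested, 5 rose and 6 fell at a Benjamini-Hochberg adjusted p under 0.05 (edgeR quasi-likelihood test), and 46 did not pass. Across all 16003 tested genes, 21.4% passed, 10.0% higher and 11.4% lower, so the members' share of 19.3% is near the background and is not a result about the set. The genes that rose were RAB15, RAB20, RAB27A, RAB39B and RABEP1, and those that fell were RIN2, RAB1A, RAB6A, RAB14, RAB30 and RAB37. Of the 11, RIN2, RAB37 and RAB39B changed by at least 0.5 on the log2 scale, 3 of 57 genes where 5.46% of all tested genes passed at that size, and RIN2 alone changed by 1 or more, where 2.26% did. The median log2 fold change of the 57 genes was 0.00, as was that of all tested genes.

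**Figure D1:**
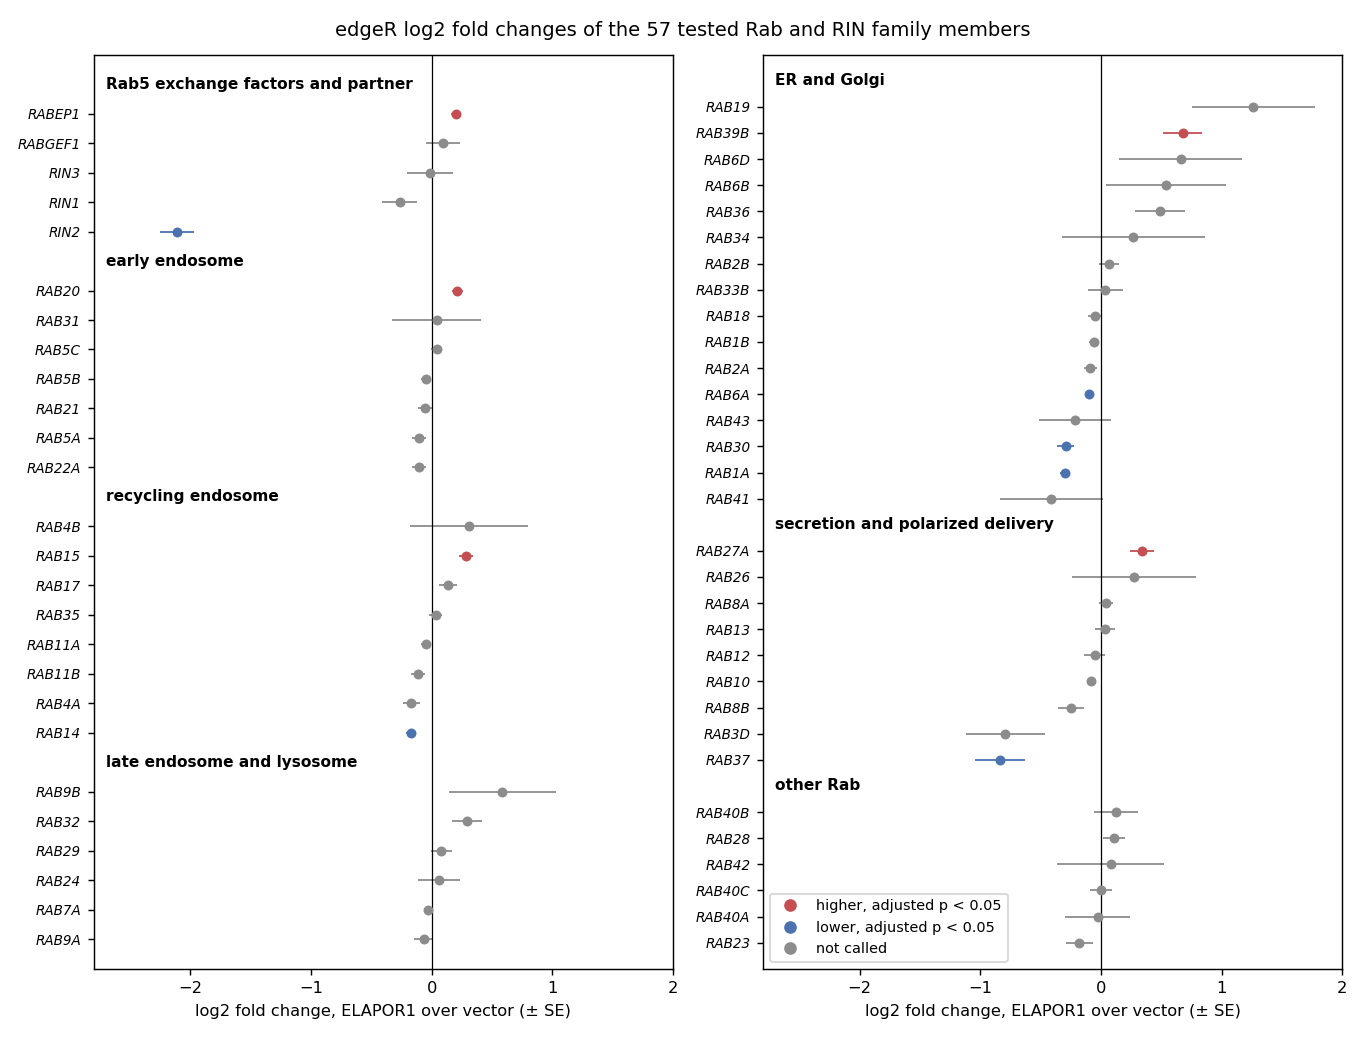
Log2 fold change of ELAPOR1 over vector, with its standard error as a bar, for the tested Rab and RIN genes grouped by role, from the edgeR fit; colour marks the genes that passed the test in each direction. RIN2 lies farthest to the left of the genes that passed, at -2.11, and most genes lie close to 0.

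The counts by role stand beside 10.0% of all tested genes higher and 11.4% lower, and no role was tested as a set. Of 16 tested ER and Golgi Rabs, 1 rose and 3 fell. Of 8 tested recycling Rabs, 1 rose and 1 fell, and of 9 tested Rabs of secretion and polarized delivery, 1 rose and 1 fell. Of 7 early endosome Rabs, 1 rose. None of the 6 tested late endosome and lysosome Rabs passed the test, and the closest of these was RAB32, a Rab of lysosome-related organelles, at a log2 fold change of 0.29 (edgeR adjusted p = 0.0895).

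The coding ends of the Rab genes that passed the test are shown because the lipid anchor that all these proteins depend on is attached there. Rab prenylation adds geranylgeranyl groups to cysteines at the end of the protein, and each sequence gives the last 30 coding bases before the stop codon, 5′ to 3′, with cysteine codons (TGT or TGC) in capitals. RAB1B, which did not pass the test, is shown as the close copy of RAB1A. The sequences come from GENCODE 29 transcripts with coordinates on GRCh38.
RAB1A, chr2:65088496-65088525, minus strand: ccagtcaagcagtcaggtggaggtTGCTGC
RAB1B, chr11:66276206-66276235, plus strand: cctgtaaagccggctggcggtggcTGTTGC
RAB6A, chr11:73677901-73677930, minus strand: caaccagtcagtgaaggaggcTGTtccTGC
RAB30, chr11:82982168-82982197, minus strand: atcagctatttgactTGTTGTaatttcaac
RAB39B, chrX:155260806-155260835, minus strand: gttgtcaaatcagagaggagaTGTttgTGC
RAB14, chr9:121181399-121181428, minus strand: ccccaaccccagagagaaggcTGTggcTGC
RAB15, chr14:64948357-64948386, minus strand: ccagcgaactcttcgaaaaccTGCtggTGC
RAB20, chr13:110523668-110523697, minus strand: cccaagaggaccagatctgggTGTTGTgcc
RAB27A, chr15:55205510-55205539, minus strand: gaagaaaaggagaaaggggcaTGTggcTGT
RAB37, chr17:74745379-74745408, plus strand: aagaagcgctccagcTGCTGCtccttcatg
All 10 ends hold 2 cysteine codons, in different arrangements. The cysteine codons are adjacent and last in RAB1A and RAB1B, while 1 other codon stands between them in RAB6A, RAB14, RAB15, RAB27A and RAB39B. In RAB20 the pair is followed by 1 more codon, and in RAB30 and RAB37 by 3. The last 30 coding bases of RIN2 and RABEP1, which are not GTPases, hold 0 cysteine codons.

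RIN2, a Rab5 exchange factor that binds active Ras, showed the largest change of any Rab or RIN gene that passed the test. RIN2 (ENSG00000132669, GRCh38 chr20:19757606-20002457, plus strand) measured 15.4, 16.7 and 15.5 CPM in the vector libraries and 3.01, 3.81 and 4.15 CPM in the ELAPOR1 libraries. These rest on 302, 345 and 256 counts with vector and 49, 73 and 74 counts with ELAPOR1, and every ELAPOR1 library lay far below every vector library. The mean fell from 15.9 ± 0.711 to 3.66 ± 0.585 CPM (SD, n = 3 each), a log2 fold change of -2.11 (SE 0.14, edgeR adjusted p = 1.467e-20), or 4.32-fold lower. No 50-base stretch of the RIN2 transcripts occurs in another annotated gene. On log2(FPKM + 1) values, FPKM being the authors' counts scaled by gene length and library total, where the pseudocount shrinks the changes of low genes, the log2 fold change was -1.03 and still passed limma's test.

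The 2 other RIN genes did not pass the test. RIN1, which also acts on ABL kinases, measured 8.99, 8.33 and 8.92 CPM with vector and 7.38, 7.26 and 7.18 CPM with ELAPOR1. Its groups did not overlap, with a log2 fold change of -0.26 (SE 0.14, edgeR adjusted p = 0.196). RIN3 measured 5.42, 4.02 and 5.34 CPM with vector and 5.78, 4.596 and 4.26 CPM with ELAPOR1, with overlapping groups and a log2 fold change of -0.01 (edgeR adjusted p = 0.980). Per length, summed RIN1, RIN2 and RIN3 expression was 4.14 ± 0.0815 FPKM with vector and 2.34 ± 0.0361 FPKM with ELAPOR1 (SD, n = 3 each), a ratio of 0.565. RIN2 made up 44.8, 50.1 and 45.2% of that sum in the vector libraries and 15.1, 19.7 and 21.7% in the ELAPOR1 libraries. RIN1 correspondingly held 40.2, 38.3 and 40.0% with vector and 57.1, 57.5 and 57.1% with ELAPOR1, so it took over as the most abundant RIN transcript. Shares add to the whole, so the higher shares of RIN1 and RIN3 carry no information beyond the fall of RIN2 and their own levels.

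The partner complex of Rab5 moved the other way or did not pass. RABEP1 (Rabaptin-5), an effector of Rab5 and Rab4 (ENSG00000029725, chr17:5282265-5386340, plus strand), measured 131.1, 133.9 and 137.7 CPM with vector and 158.9, 150.9 and 153.9 CPM with ELAPOR1. The groups did not overlap, and RABEP1 rose by 15.1%, a log2 fold change of 0.20 (SE 0.04, edgeR adjusted p = 5.625e-05). Its exons overlap those of NUP88 on the opposite strand, whose own log2 fold change was -0.18, and no source used here states a stranded count, so reads of the 2 genes in that overlap cannot be told apart. RABGEF1 (Rabex-5), the exchange factor that binds RABEP1, measured 7.51, 7.89 and 9.64 CPM with vector and 9.53, 8.15 and 9.03 CPM with ELAPOR1, with overlapping groups and an adjusted p of 0.707 by edgeR. RABGEF1 is uncertain, because 62.6% of the 50-base words of its transcripts also occur in other genes.

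**Figure D2:**
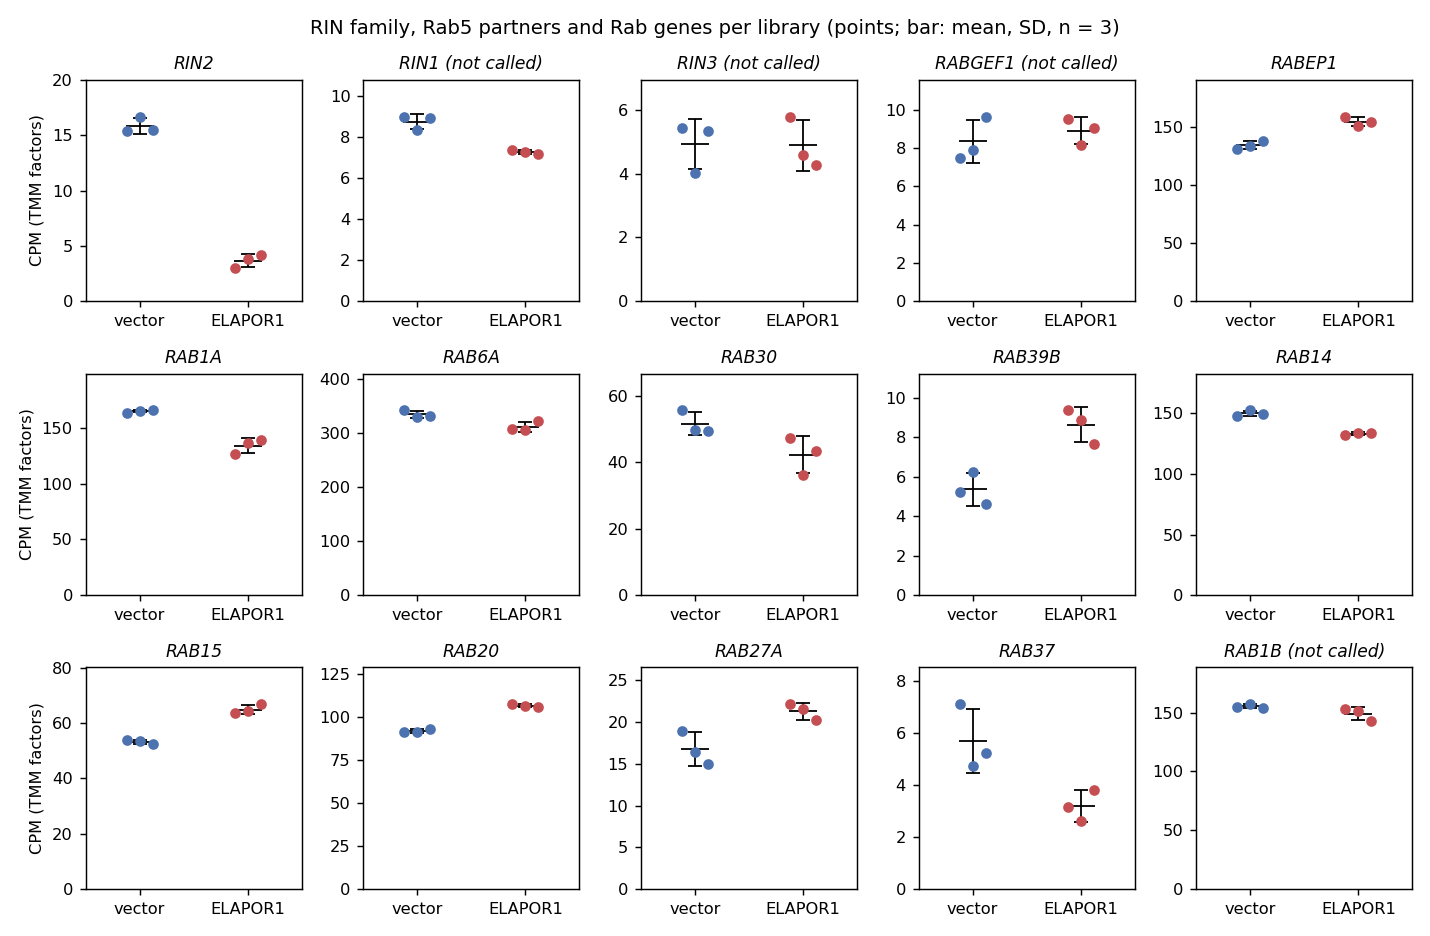
CPM in each of the 6 libraries for the 11 genes that passed the test and for RIN1, RIN3, RABGEF1 and RAB1B, which did not, 1 panel per gene, with mean and SD as bars and each axis starting at 0. The groups separate in every panel of a gene that passed, and in RIN2 the nearest libraries lie at 15.4 and 4.15 CPM.

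Among early endosome Rabs, RAB20 rose and the 3 Rab5 genes did not pass the test. RAB20, a Rab of endosomes and phagosomes (ENSG00000139832, chr13:110523066-110561722, minus strand), measured 91.2, 91.2 and 93.2 CPM with vector and 107.3, 106.2 and 105.9 CPM with ELAPOR1. The groups did not overlap, and RAB20 rose by 15.9%, a log2 fold change of 0.21 (SE 0.05, edgeR adjusted p = 1.875e-04). RAB5A, RAB5B and RAB5C, the substrates of the RIN proteins, had log2 fold changes of -0.10, -0.05 and 0.04 and overlapping groups (edgeR adjusted p of 0.178, 0.474 and 0.605). RAB5C held 48.8, 48.8 and 49.8% of the summed Rab5 FPKM with vector and 50.3, 51.6 and 51.3% with ELAPOR1, a separation of about 2 points that an exact permutation test, two-sided, gives p = 0.1, the smallest p that 3 against 3 allows. RAB5C shares 24.7% of its 50-base words with other genes. RAB21 and RAB22A, which act with Rab5 in endocytosis, had log2 fold changes of -0.06 and -0.11 and did not pass.

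In the recycling group, RAB15 rose and RAB14 fell. RAB15 acts in recycling from endosomes. RAB15 (ENSG00000139998, chr14:64945814-64973226, minus strand) measured 53.8, 53.5 and 52.3 CPM with vector and 63.5, 64.4 and 66.8 CPM with ELAPOR1, which is 21.97% higher, a log2 fold change of 0.29 (SE 0.06, edgeR adjusted p = 4.778e-05). RAB14, which acts between the Golgi and endosomes (ENSG00000119396, chr9:121178133-121223014, minus strand), measured 147.8, 152.5 and 149.8 CPM with vector and 131.9, 133.7 and 134.2 CPM with ELAPOR1. RAB14 fell by 0.17 on the log2 scale (SE 0.04, edgeR adjusted p = 7.026e-04), and the groups of both genes were apart. RAB14 overlaps GSN, which fell by 0.66 on the log2 scale, but their exons do not overlap. The central recycling Rabs RAB11A and RAB11B had log2 fold changes of -0.05 and -0.11 with all ELAPOR1 libraries below all vector libraries, and neither passed the test (adjusted p of 0.416 and 0.175 by edgeR). RAB4A, which acts in fast recycling, had a log2 fold change of -0.17 (edgeR adjusted p = 0.0730). RAB4A is uncertain, because 17.9% of its 50-base words also occur in SPHAR. RAB25, the epithelial relative of Rab11, had 2, 1 and 5 counts with vector and 0, 0 and 8 counts with ELAPOR1, too few to test.

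Among ER and Golgi Rabs, RAB1A showed the clearest fall and its copy RAB1B did not pass. RAB1A, which with RAB1B directs vesicles from the ER to the Golgi (ENSG00000138069, chr2:65070696-65130331, minus strand), measured 163.6, 165.2 and 165.5 CPM with vector and 126.4, 136.4 and 138.7 CPM with ELAPOR1. The mean fell from 164.8 ± 1.01 to 133.9 ± 6.52 CPM (SD, n = 3 each), a log2 fold change of -0.30 (SE 0.04, edgeR adjusted p = 9.286e-09). RAB1B measured 155.1, 157.1 and 154.1 CPM with vector and 153.4, 151.2 and 142.7 CPM with ELAPOR1, a log2 fold change of -0.06 (SE 0.04, edgeR adjusted p = 0.308). The copies are distinct enough to be counted apart for the most part, since 2.08% of 50-base words of RAB1A and 4.33% of those of RAB1B occur in another gene. RAB1A exons overlap those of CEP68 on the opposite strand, whose log2 fold change was 0.09, and reads in that overlap cannot be told apart. RAB1A held 38.3, 38.2 and 38.7% of the summed Rab1 FPKM with vector and 32.7, 34.7 and 36.4% with ELAPOR1, with groups apart. The Rab1 sum was 130.2 ± 0.66 FPKM with vector and 115.8 ± 2.00 FPKM with ELAPOR1 (SD, n = 3 each).

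The other Golgi Rabs that passed moved in both directions. RAB6A, which directs retrograde traffic through the Golgi (ENSG00000175582, chr11:73675638-73761137, minus strand), measured 341.5, 330.3 and 331.1 CPM with vector and 307.0, 305.8 and 322.4 CPM with ELAPOR1, a log2 fold change of -0.10 (SE 0.03, edgeR adjusted p = 0.0170). It shares 14.2% of its 50-base words with other genes, most with RAB6C. Without ELAPOR1 replicate 1 or 2 the adjusted p of RAB6A was 0.0867 or 0.102, within a range of 0.00276 to 0.102 over the alternatives. RAB30, a Golgi Rab (ENSG00000137502, chr11:82973133-83071923, minus strand), measured 55.6, 49.6 and 49.5 CPM with vector and 47.4, 36.2 and 43.3 CPM with ELAPOR1, a log2 fold change of -0.29 (SE 0.07, edgeR adjusted p = 8.334e-04). Its call rests partly on ELAPOR1 replicate 2, the lowest library: without it the log2 fold change was -0.19 and the adjusted p 0.0599, within a range of 8.485e-05 to 0.107 over the alternatives. In the authors' deposited table RAB30 did not pass either, with an adjusted p of 0.0788. RAB39B, a Rab best known in neurons (ENSG00000155961, chrX:155258235-155264491, minus strand), measured 5.21, 6.25 and 4.61 CPM with vector and 9.35, 8.88 and 7.63 CPM with ELAPOR1. RAB39B rose 1.60-fold, a log2 fold change of 0.68 (SE 0.16, edgeR adjusted p = 7.609e-04), and all 3 ELAPOR1 libraries lay above the highest vector library. On log2(FPKM + 1) values its log2 fold change was 0.44.

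In the secretion group, RAB27A rose and RAB37 fell. RAB27A, which docks secretory granules and exosome-bearing endosomes at the plasma membrane (ENSG00000069974, chr15:55202966-55319113, minus strand), measured 18.95, 16.41 and 14.98 CPM with vector and 22.1, 21.6 and 20.2 CPM with ELAPOR1. RAB27A rose by 26.6%, a log2 fold change of 0.34 (SE 0.10, edgeR adjusted p = 0.00700), with groups apart. The call was lost without vector replicate 3, the lowest vector library, where the adjusted p was 0.0746 (range over the alternatives 0.00219 to 0.0790). RAB27A overlaps PIGB on the opposite strand and PIGBOS1 on the same strand, and reads in the overlap cannot be told apart. RAB37, a Rab of regulated exocytosis (ENSG00000172794, chr17:74670578-74747335, plus strand), measured 7.10, 4.75 and 5.22 CPM with vector and 3.14, 2.61 and 3.82 CPM with ELAPOR1, on 139, 98 and 86 counts against 51, 50 and 68. RAB37 fell by 0.84 on the log2 scale (SE 0.21, edgeR adjusted p = 0.00136), or 1.79-fold, and its groups were apart by less than 1 CPM. On log2(FPKM + 1) values the log2 fold change was -0.39 and limma's adjusted p was 0.0782, within a range of 6.935e-04 to 0.0784 over the alternatives. RAB27B, the close relative of RAB27A, had no count. RAB8A and RAB8B, which act in polarized delivery, had log2 fold changes of 0.04 and -0.25 and did not pass, while RAB8B held 20.9, 20.5 and 19.8% of the summed Rab8 FPKM with vector and 19.0, 17.6 and 15.7% with ELAPOR1.

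Some genes with large differences did not pass. RAB19, a Golgi Rab with 9, 9 and 5 counts with vector and 19, 20 and 13 counts with ELAPOR1, had a log2 fold change of 1.26 (SE 0.51, edgeR adjusted p = 0.0680), and its exons overlap those of SLC37A3. RAB3D, a Rab of secretory granules, measured 2.50, 1.45 and 3.82 CPM with vector and 1.91, 1.31 and 1.23 CPM with ELAPOR1, with overlapping groups and a log2 fold change of -0.79 (edgeR adjusted p = 0.0748). RAB36 had a log2 fold change of 0.49 (edgeR adjusted p = 0.0877). Of the 46 genes that did not pass, 7 had an unadjusted p under 0.05 by edgeR. Of the 57 tested genes, 8 had all ELAPOR1 libraries above all vector libraries and 14 had them below, where 16.4% and 17.4% of all tested genes did, 33.8% together. The remaining tested genes, RAB2A, RAB2B, RAB6B, RAB6D, RAB9A, RAB9B, RAB12, RAB13, RAB17, RAB18, RAB23, RAB24, RAB26, RAB28, RAB29, RAB31, RAB33B, RAB34, RAB35, RAB40A, RAB40B, RAB40C, RAB41, RAB42, RAB43 and RAB4B, did not pass, with log2 fold changes from -0.41 for RAB41 to 0.66 for RAB6D. RAB43 is uncertain, because 80.0% of its 50-base words occur in other genes, as are RAB6D, where 1641 of 2983 words do, RAB24 with 38.2%, RAB4B with 37.7% and RAB13 with 21.8%. The 11 genes too low to test, RAB28P5, RAB43P1, RAB33A, RAB39A, RAB6C, RAB38, RAB7B, RAB25, RAB3A, RAB3B and RAB3C, had at most 15 counts in any library.

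Expression per length was concentrated in a few Rabs. With vector, RAB1B led at 80.2 ± 0.72 FPKM, followed by RAB6A at 68.7 ± 1.45, RAB20 at 61.3 ± 0.756, RAB10 at 55.7 ± 1.95 and RAB1A at 50.03 ± 0.207 FPKM (SD, n = 3 each). These 5 held 44.9% of the summed FPKM of the 63 Rab genes, a number that counts the pseudogenes RAB28P5 and RAB43P1. Of the 63, 20 reached 10 FPKM and 26, with both pseudogenes among them, stayed under 1 FPKM. The next in order were RAB7A at 41.3 and RAB5C at 35.7 FPKM, the latter not separated from RAB14 at 35.03 FPKM by its replicates. With ELAPOR1, RAB20 at 70.0 FPKM stood above RAB6A at 63.1 FPKM. The libraries of RAB1A at 40.0 FPKM then overlapped those of RAB7A at 39.8 FPKM, on the deposited lengths. RIN2, RIN1 and RAB37 lay low, at 1.93, 1.64 and 1.13 FPKM with vector.

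RAB10, which delivers cargo to the plasma membrane, and RAB7A, which directs late endosomes to lysosomes, did not pass the test. RAB10 measured 194.4, 209.4 and 203.4 CPM with vector and 197.4, 185.4 and 192.2 CPM with ELAPOR1, with overlapping groups, and a log2 fold change of -0.08 (edgeR adjusted p = 0.126). RAB7A measured 292.5, 294.8 and 298.5 CPM with vector and 292.1, 290.4 and 284.8 CPM with ELAPOR1, with a log2 fold change of -0.03 (edgeR adjusted p = 0.587).

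**Figure D3:**
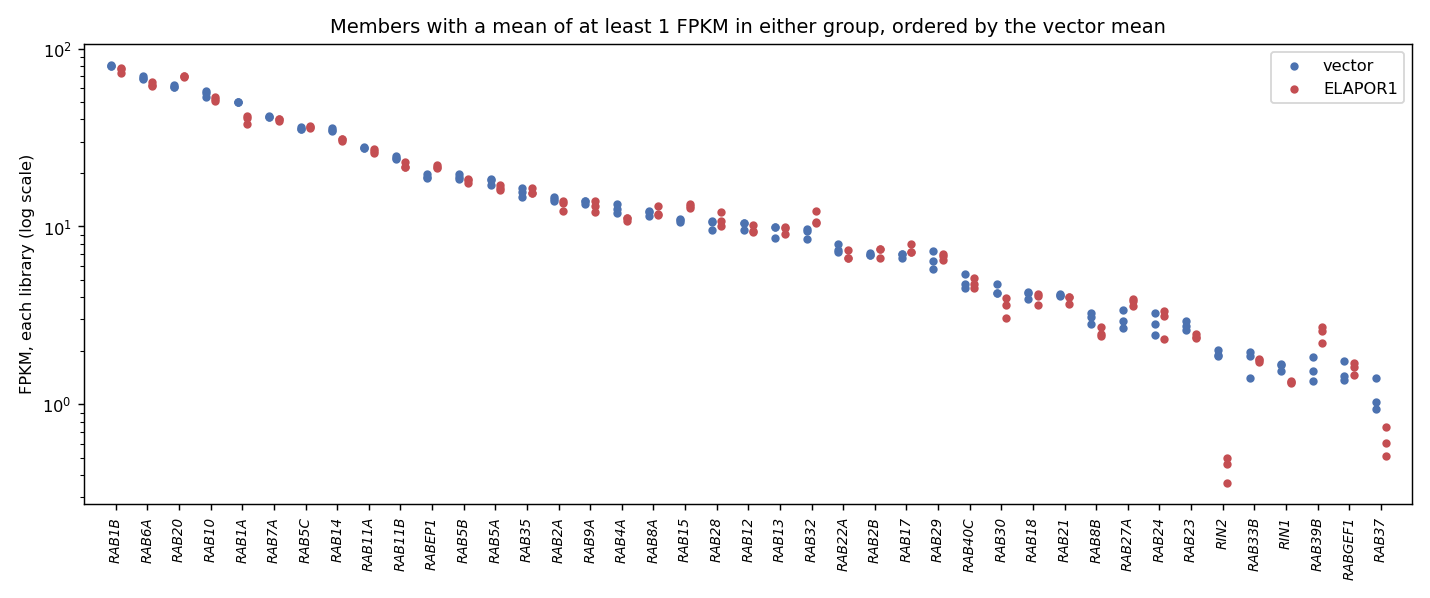
FPKM on a log axis of the Rab and RIN genes with a group mean of at least 1 FPKM, in the order of their vector mean, with 1 point per library. RAB1B stands highest at a vector mean of 80.2 FPKM, and the widest gap between the groups is that of RIN2, from a vector mean of 1.93 FPKM.

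Summed over the 63 Rab genes, FPKM was 697.5, 706.3 and 707.8 with vector and 675.8, 677.4 and 683.1 with ELAPOR1. The sum was 3.57% lower with ELAPOR1, and 2.10% lower when scaled by the TMM normalization factors. The groups did not overlap in either form, and the exact permutation test, two-sided, gave p = 0.1, the smallest it can give here. Of 14 sets of close copies, 7 had summed FPKM lower in every ELAPOR1 library than in every vector library. The sum was higher in this way for 1 set (Rab27), and 6 sets overlapped. With vector, RAB4A, RAB6A, RAB7A and RAB27A held 98.6, 99.8, 99.9 and 100% of their sets on average. The sums of those sets therefore restate single genes given above. Of all tested genes taken singly, 17.4% lay below and 16.4% above by CPM, and no like share was computed for sets. The same sets were apart with summed CPM, which carry the TMM factors. The smallest p in this family is 0.1, or 0.175 after Benjamini-Hochberg adjustment, so none can pass by the exact permutation test. The ratio of sums was 0.880 for Rab4, 0.932 for Rab11, 0.920 for Rab6, 0.973 for Rab5 and 0.964 for Rab7, and for Rab27 the sum went from 3.01 to 3.77 FPKM.

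**Figure D4:**
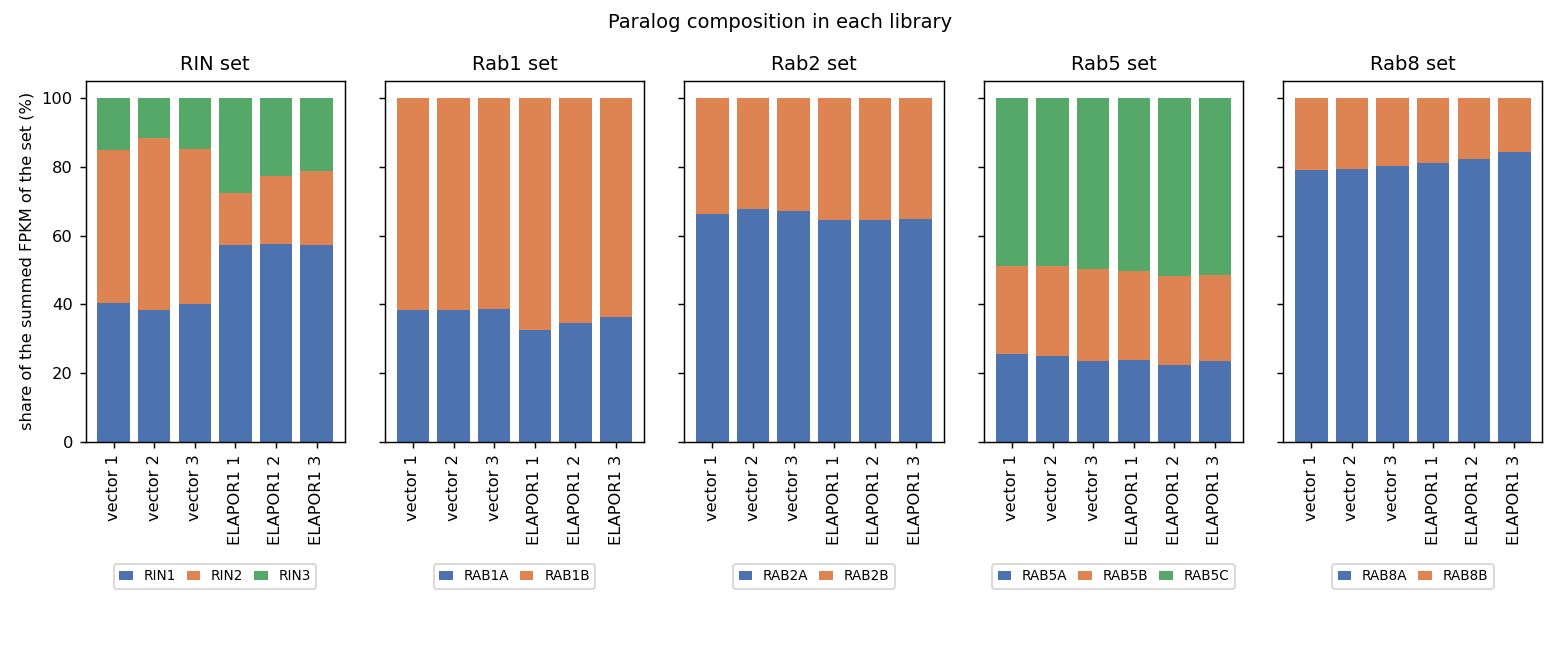
Share of the summed FPKM held by each gene within 5 sets of close copies, 1 bar per library, in percent. RIN2 shrinks from 44.8 to 50.1% with vector to between 15.1 and 21.7% with ELAPOR1, while the Rab1, Rab2, Rab5 and Rab8 sets move by a few points.

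The calls can be set beside those of all genes of like level, taken as the mean FPKM of all 6 libraries. Of 21 members with at least 10 FPKM, 3 rose and 3 fell, where 12.8% of all genes at that level rose and 22.4% fell. Of 19 members between 1 and 10 FPKM, 2 rose and 2 fell, where 9.75% and 8.85% of all genes did. Of 17 tested members under 1 FPKM, 0 rose and 1, RAB37, fell, where 7.45% and 3.59% of all genes did.

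RefSeq's promoter table (GRCh38.p14) matched 52 of the 68 genes, of which 4, RAB6A, RAB14, RAB27A and RAB30, passed the test. A gene can have several windows, 1 for each start site, and sequence is shown for the most upstream window of RAB14, RAB30 and RAB27A. Windows cover up to 250 bases before a start site and are cut back to the stretch outside annotated untranslated regions. Capitals mark a GC box (GGGCGG or its reverse complement CCGCCC) or a CCAAT box (CCAAT or ATTGG), both short motifs common in promoters, searched on both strands. RAB14 and RAB30 fell and RAB27A rose, and each window is printed 5′ to 3′ on the gene's strand.
RAB14, chr9:121201870-121202119, minus strand: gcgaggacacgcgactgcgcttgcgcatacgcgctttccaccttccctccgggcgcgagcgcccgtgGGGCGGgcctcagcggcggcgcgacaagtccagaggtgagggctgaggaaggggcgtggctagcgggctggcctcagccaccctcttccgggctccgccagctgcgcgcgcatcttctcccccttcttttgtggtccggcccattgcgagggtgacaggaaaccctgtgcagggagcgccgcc
RAB30, chr11:83071924-83072147, minus strand: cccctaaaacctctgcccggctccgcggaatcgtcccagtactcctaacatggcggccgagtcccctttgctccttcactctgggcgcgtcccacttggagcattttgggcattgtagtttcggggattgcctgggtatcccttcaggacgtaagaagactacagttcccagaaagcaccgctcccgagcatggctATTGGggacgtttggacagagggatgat
RAB27A, chr15:55319251-55319373, minus strand: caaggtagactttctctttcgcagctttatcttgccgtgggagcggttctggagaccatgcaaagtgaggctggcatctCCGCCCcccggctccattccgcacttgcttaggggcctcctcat
The windows shown hold 1 GC box in RAB14 and RAB27A and 1 CCAAT box in RAB30. Windows not shown hold other matches, and the second RAB30 window has 2 CCAAT boxes. Of the 4 other RAB27A windows, 1 has a single stretch CCAATTGG, where CCAAT and ATTGG overlap. Among the rest, 1 has 2 GC boxes and 2 have no match. RAB6A, which fell, has 1 window with a GC box and 1 with no match, neither printed. The shares of genes that follow, for all 4 motifs, were taken over windows of 250 bases that were not cut back. Over any such window of a gene, GC boxes occurred in 43 of the 52 genes (82.7%) against 62.1% of 15843 protein-coding genes. CCAAT boxes occurred in 15 (28.8%) against 40.2%. The E-box CACGTG, a motif of basic helix-loop-helix factors, occurred in 5 (9.62%) against 9.73%, and the cAMP response element TGACGTCA in 1 (1.92%) against 2.73%. The 52 genes had to have a count in these cells, and the protein-coding genes were taken without that requirement. They also had 75 windows for 52 genes, against 35116 windows for all 27305 genes, and more windows per gene raise such shares. These differences are therefore not a result about Rab promoters. A match is a description of letters in these windows and not a bound site.

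The machinery that loads, removes and answers Rabs was taken from lists of 142 genes, of which 137 were tested; 14 rose and 13 fell, 19.7% in all, near the 21.4% of all genes. Without vector replicate 2, 9 rose and 11 fell, and with limma on FPKM 4 rose and 7 fell. GDI2, the widely expressed dissociation inhibitor, measured 465.4, 469.6 and 457.8 CPM with vector and 402.0, 403.5 and 419.7 CPM with ELAPOR1, and fell by 0.18 on the log2 scale (edgeR adjusted p = 1.456e-06). The groups did not overlap.

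Of 33 tested exchange factors other than the RIN group, 2 rose (6.06%) and 1 fell (3.03%), against 10.0% and 11.4% of all tested genes. The DENN-domain proteins DENND5B and DENND5A, close copies, moved in opposite directions, with log2 fold changes of 0.50 (edgeR adjusted p = 1.312e-06) and -0.30 (7.217e-06), and SBF1 rose by 0.16 on the log2 scale (0.00573). Of 39 GTPase-activating proteins of the TBC family and its relatives, 9 rose (23.1%) and 2 fell (5.13%), where 10.0% and 11.4% of all tested genes did. TBC1D4, which acts on Rab10 and its relatives in glucose transporter traffic, was higher by 1.11 on the log2 scale (edgeR adjusted p = 0.0117) but low, at 1.18 and 2.57 CPM. TBCK rose by 0.35, and TBC1D23, a catalytically inactive TBC protein that captures vesicles at the Golgi, fell by 0.33 on the log2 scale, from 91.5 to 72.8 CPM (edgeR adjusted p = 1.569e-07). Several of these calls were lost with 1 library left out, where fewer libraries also weaken the test. The adjusted p of SBF1 was 0.0892 without ELAPOR1 replicate 1, that of TBC1D4 0.0520 without vector replicate 1 and 0.184 without ELAPOR1 replicate 1, and that of TBCK 0.125 without vector replicate 2 and 0.0581 without ELAPOR1 replicate 3.

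Effectors carry out what an active Rab orders. Of 13 effectors of recycling endosomes, 0 rose and 4 fell (30.8%), where 10.0% of all tested genes rose and 11.4% fell, with a median log2 fold change of -0.17 against 0.00 over all tested genes. They were MYO5A, a motor that carries Rab11 vesicles (-0.34, edgeR adjusted p = 2.918e-04), MICALL1, a tubular endosome scaffold (-0.31, 0.00658), RAB11FIP1, a Rab11 adaptor (-0.25, 9.302e-04), and EHD1, a membrane-remodelling ATPase (-0.20, 0.00764), named after its values were seen, whose groups overlapped. MYO5B, the relative of MYO5A in the recycling list, did not pass, with a log2 fold change of 0.001 (edgeR adjusted p = 0.995). Of 13 early endosome effectors, 1 rose, TGFBRAP1, a tethering subunit (0.16, edgeR adjusted p = 0.0247). None of 9 late endosome effectors passed the test, and the closest was RILPL2 with an adjusted p of 0.182 by edgeR.

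Effectors of secretion and the Golgi moved in both directions, in lists of few genes, where 10.0% of all tested genes rose and 11.4% fell. Of 12 secretory effectors, 1 rose and 2 fell: the Rab27 effectors SYTL3 and EXPH5 had log2 fold changes of 0.92 (edgeR adjusted p = 0.0101) and -0.31 (4.712e-04), and the Rab8 effector OPTN had one of -0.22 (0.00722). Of 10 Golgi effectors, 1 rose and 2 fell: the golgin GCC2 had a log2 fold change of 0.21 (edgeR adjusted p = 1.124e-04), the Rab1 tether USO1 one of -0.21 (2.139e-05) and the Rab6 motor adaptor BICD1 one of -0.25 (0.00600). Left-out libraries ended the calls of MICALL1 (adjusted p 0.0571 without vector replicate 2 and 0.0687 without ELAPOR1 replicate 3), SYTL3 (0.0671 without vector replicate 2 and 0.125 without ELAPOR1 replicate 1), OPTN (0.0873 and 0.0654 without ELAPOR1 replicate 1 and 2) and BICD1 (0.0606 without ELAPOR1 replicate 3). TGFBRAP1 lost its call without vector replicate 2 or 3 or ELAPOR1 replicate 2, with an adjusted p of 0.0953, 0.123 and 0.219. With DESeq2, TBCK (adjusted p = 0.0691), TGFBRAP1 (0.103) and OPTN (0.0505) did not pass, and with limma on log2(FPKM + 1) neither did MYO5A (0.0675), RAB11FIP1 (0.0634) and EXPH5 (0.0563).

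**Figure D5:**
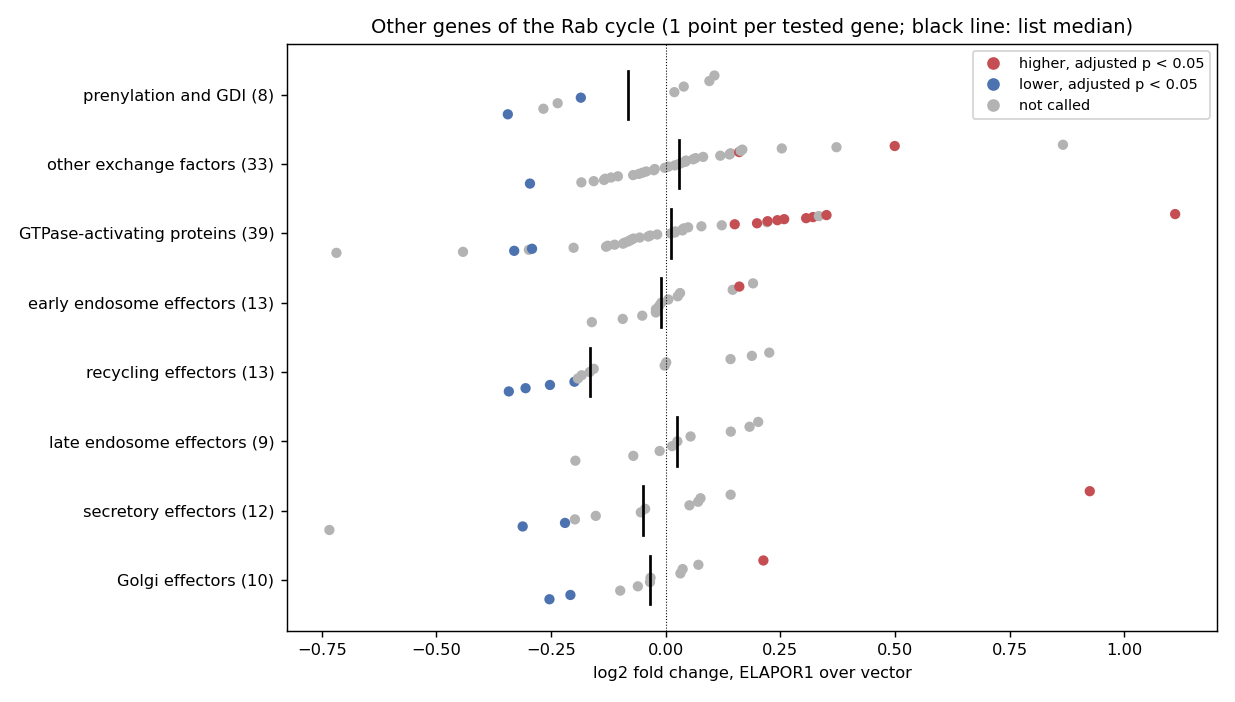
Log2 fold changes of the tested genes of the 8 Rab pathway lists, 1 row per list and 1 point per gene, with genes that passed the test coloured by direction and the list median marked. The recycling effectors have a median of -0.17 and 4 genes that fell, and no late endosome effector passed.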

How the data were processed

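Poly(A) RNA of SW620 cells was sequenced in 3 vector and 3 ELAPOR1 libraries. The authors deposited read counts per gene without normalization, and the submitters' processing notes list GRCh38, HTSeq 0.6.1, HISAT2 2.0.1, cutadapt 1.9.1 and DESeq2. FPKM values were deposited beside the counts, and 142222 of 142222 recomputed from count, exonic length and library total lay within 0.01. A table of the authors' own comparison, deposited separately, holds per gene a log2 fold change, a p-value, a mean normalized signal and a test score, of which the signal and score were not used. In that deposited table, 10 members passed, all among the 11 reported. Columns named K were read as ELAPOR1 and NC as vector.

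Counts were tested over all genes that passed filterByExpr with TMM factors in edgeR 4.0.16 (R 4.3.3), quasi-likelihood, two-sided, with Benjamini-Hochberg adjustment. CPM values carry the TMM factors. DESeq2 1.42.0, and limma 3.58.1 on log2(FPKM + 1) and log2(FPKM + 0.1) above a filter of 0.5 FPKM in 3 libraries, were alternatives. Simulated counts of this comparison (15545 genes tested) held 50 changed genes per fold size, none drawn from the genes lowest with vector. Of these, 62% of genes changed 1.25-fold, 86% of 1.5-fold and 100% of 2-fold and 4-fold genes were recovered. There were 13 false calls of 187, and recovery of changes in the lowest genes was not measured. Far fewer genes were changed in the simulation than the 21.4% that passed in the data, so these rates need not carry over. Between libraries of a group, mean chi-square per gene was 2.43 to 3.62, so none was a copy of another. GENCODE 29 matched 58337 of 60605 identifiers. Precision is limited by depth for low genes.

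Members and lists were chosen with earlier results of these data known. Named are ELAPOR1, every member that passed, the RIN group with RABGEF1 and RABEP1, the 5 members highest with vector, and from each list up to 3 genes that passed with the largest change, or the one with the smallest p; others named as examples were chosen after their values were seen. A gene that the rule names is not reported here.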

Additional observations from a re-analysis of the deposited data

How the results depend on the processing

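Of the 11 members that passed, 7 (RIN2, RAB1A, RAB15, RABEP1, RAB20, RAB14 and RAB39B) passed in all 16 alternatives, and none of the 11 reversed. RAB30 lost its call with DESeq2 under a local dispersion trend, chosen after seeing the data (adjusted p = 0.0759), and with limma on FPKM (0.106 and 0.107), where RAB27A (0.0790 and 0.0777) and RAB37 (0.0782 and 0.0784) lost theirs too. Among genes that did not pass, RAB4A and RAB10 passed with library sizes alone, RAB4A also with limma on FPKM and, like RAB10, without vector replicate 1, RAB19 with a filter of 10 counts, RAB3D without vector replicate 2 and RAB36 without ELAPOR1 replicate 3. Limma on log2(FPKM + 1) called 2133 genes, 9 members and 11 pathway genes, and on log2(FPKM + 0.1) 2098, 9 and 11, against 3427, 11 and 27; an adjusted p under 0.01 left 2245, 10 and 21. Leaving out each library gave 2723 to 3187 genes, 9 to 13 members, 20 to 30 pathway genes and 8 to 10 sets of close copies with groups apart, and moved the log2 fold change of RIN3 between -0.148 and 0.0734, on either side of 0. Of 18 named pathway genes that passed, 7 passed in all 16 alternatives, 11 lost the call in at least 1 and none reversed; limma on FPKM ended the calls of SBF1, TBCK, TGFBRAP1, RAB11FIP1, MYO5A, SYTL3, EXPH5, OPTN and BICD1. DESeq2 called 2339 genes, 11 members and 21 pathway genes. The higher pathway calls, 14, came to 9 to 15 with a library left out, the lowest without vector replicate 2, to 8 at an adjusted p under 0.01 and to 4 with limma, and the lower calls, 13, to 7 with limma. With CPM in place of FPKM, the ratio of sums was 0.979 for Rab7 and 0.535 for the RIN set.

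Replicate numbers did not pair the libraries: same-numbered libraries' deviations correlated at -0.02, -0.03 and -0.02. With the replicate block, 3361 genes, 11 members and 27 pathway genes passed.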
